A study of Ricinus communis with 18 samples.

Results

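In castor (Ricinus communis) roots, 4 genes named for the synthesis and breakdown of abscisic acid, the hormone with which plants respond to water shortage, were followed through a spell in polyethylene glycol and after it. They were taken by identifier, 4 of 21332 genes in the deposited table. A pair carries the product name zeaxanthin epoxidase-like (ncbi_8267996 and ncbi_8267999). Of the others, 1 is named as the 9-cis-epoxycarotenoid dioxygenase NCED5 (ncbi_8264093), and 1 as abscisic acid 8'-hydroxylase 1-like (ncbi_8275341). The deposited symbol of ncbi_8264093 is NCED1. It is called NCED5 throughout as a name only, and which family member it is was not tested. The first 3 of the 4 genes were chosen by their higher counts after 3 days in PEG (edgeR adjusted p below 0.05). The comparison that led to the choice of the hydroxylase is not recorded. Values at 3 days are therefore given for all 4 as a description with no test, and the hydroxylase has no test at any time. All 4 passed the filter on low counts over the 18 libraries, but ncbi_8267996 did not pass it with only the libraries of day 7 or only those of day 11.

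Root systems were sampled in 6 groups of 3 libraries. Roots were left untreated or kept in 15% PEG-6000, a large polymer that holds water back from the root, and were taken after 3 or 7 days. The last treated roots were taken at day 11, 4 days after they had been taken out of PEG (rehydrated roots). All 3 sampling days had untreated roots to match. The labels do not give the cultivar, the age of the plants or whether each library is a plant of its own. The p-values below measure only the spread among these libraries, and this could be technical.

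Abscisic acid is made from carotenoids. In plastids, zeaxanthin epoxidase turns zeaxanthin into violaxanthin, and NCED enzymes cleave the 9-cis forms of the epoxycarotenoids to xanthoxin, the step generally held to limit the rate of synthesis under drought. A dehydrogenase and an aldehyde oxidase, which needs a sulfurated molybdenum cofactor, complete the hormone in the cytosol. Abscisic acid 8'-hydroxylases, cytochrome P450 enzymes of the CYP707A family, begin its breakdown, and glucosyltransferases store it as a glucose ester.

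Total counts ran from 6607760 to 10817476 per library, and 16085 genes passed the filter on low counts. In these bulk samples, fewer cells of a type and less RNA per cell cannot be told apart. The root marker genes SHORT-ROOT, SCARECROW and the Casparian strip membrane proteins, 8 genes in all, were detected in every group. Their summed level was 54.4 to 128 FPKM (fragments scaled by gene length and library size) in untreated roots at 3 days and 14.5 to 44.7 FPKM in PEG roots of that day. Levels of untreated roots at 11 days were computed from counts and all others are the deposited FPKM. On this scale 33.3% of all tested genes had all PEG libraries below all untreated ones at 3 days, and 8.1% had them above. At 7 days these shares were 25% and 8.44%. At 7 days the sum was 95.1 to 144 FPKM untreated and 27 to 88.5 FPKM in PEG, and at 11 days 80.6 to 246 FPKM untreated and 83.2 to 155 FPKM rehydrated. The 55 photosynthesis genes used as markers of shoot tissue went the other way. Their sums were 452 to 1110 FPKM untreated and 1130 to 2230 FPKM in PEG at 3 days. The ranges were 387 to 799 FPKM untreated and 2810 to 3530 FPKM in PEG at 7 days, and 410 to 1090 FPKM untreated and 573 to 1010 FPKM rehydrated at 11 days. Of them, 9 to 13 had no counts in a group. The part of these shifts in the results below was not tested.

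The name of the first pair of genes is weakly based. The deposited table gives 12 genes the product name zeaxanthin epoxidase, taken from the best match in another species. Only 2 of the 12, ncbi_8262901 and ncbi_8289205, also carry the KEGG orthology number of that enzyme in the table. The genes ncbi_8267996 and ncbi_8267999 carry no KEGG number, and the table's own symbol for both is HPXO, a name used for a flavin-dependent urate hydroxylase of bacteria. Zeaxanthin epoxidase and such hydroxylases belong to the same wide family of flavin monooxygenases. The pair is therefore called zeaxanthin epoxidase-like throughout, as a product name and not as a known activity. On the RefSeq assembly ASM1957865v1, ncbi_8267999, the pseudogene ncbi_8267998, ncbi_8267997 and ncbi_8267996 follow each other with no other gene between them, so reads of these related copies may have been split among them.

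The zeaxanthin epoxidase-like gene ncbi_8267996 was nearly silent in all groups except PEG roots at 3 days. Its 3 untreated libraries of that day had 0.68, 0.48 and 0.45 FPKM, and the 3 PEG libraries had 5.82, 12.19 and 2.19 FPKM. All PEG libraries were above all untreated ones, with a spread of several fold among themselves. The difference was 4.08 ± 0.72 (log2 ± SE), or 16.9-fold, and rests on 17 counts over the untreated libraries and 227 over the PEG libraries. At 7 days the untreated libraries had 1.19, 0.64 and 1.46 FPKM and the PEG libraries 0.09, 0.33 and 0.81 FPKM. These ranges overlapped, and the difference of -1.20 ± 0.74, on 38 and 13 counts, did not pass (edgeR adjusted p = 0.329). Rehydrated roots had 0.79, 1.25 and 0.70 FPKM against 0.24, 0.52 and 1.04 FPKM in untreated roots of day 11, again overlapping (0.45 ± 0.73, edgeR adjusted p = 0.884). That difference rests on 27 counts rehydrated and 18 untreated. Counts at 7 and 11 days were thus few. Lack of a call in any comparison of those days cannot show that the gene did not change. By group mean the order was PEG at 3 days (6.73 ± 5.06 FPKM, SD, n = 3), untreated at 7 days (1.10 ± 0.418), rehydrated (0.913 ± 0.295), untreated at 11 days (0.60 ± 0.406), untreated at 3 days (0.537 ± 0.125) and PEG at 7 days (0.41 ± 0.367). Only the first of these stood clear of its neighbour.

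The second zeaxanthin epoxidase-like gene, ncbi_8267999, was high in PEG roots at 3 days and again in rehydrated roots. At 3 days it had 12.27, 3.45 and 5.5 FPKM untreated and 73.07, 22.46 and 36.77 FPKM in PEG, with no overlap and a difference of 3.09 ± 0.66, or 8.54-fold. At 7 days the values were 6.12, 15.24 and 6.17 FPKM untreated and 3.56, 9.22 and 3.72 FPKM in PEG. They overlapped, and the difference was -0.55 ± 0.63 (edgeR adjusted p = 0.624), a direction that turned to 0.13 without untreated library 2 of that day. At 11 days the untreated libraries had 6.43, 20.37 and 16.21 FPKM and the rehydrated ones 20.19, 41.60 and 54.71 FPKM. The lowest rehydrated library was just under the highest untreated one, and the difference of 1.32 ± 0.62 was not called (edgeR adjusted p = 0.513). The group means, in order, were 44.1 ± 26.1 FPKM in PEG at 3 days, 38.8 ± 17.4 rehydrated, 14.3 ± 7.16 untreated at 11 days, 9.18 ± 5.25 untreated at 7 days, 7.07 ± 4.62 untreated at 3 days and 5.5 ± 3.22 in PEG at 7 days. The first and second of these means did not differ beyond their spread, nor did the last 4 among neighbours.

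**Figure D1:**
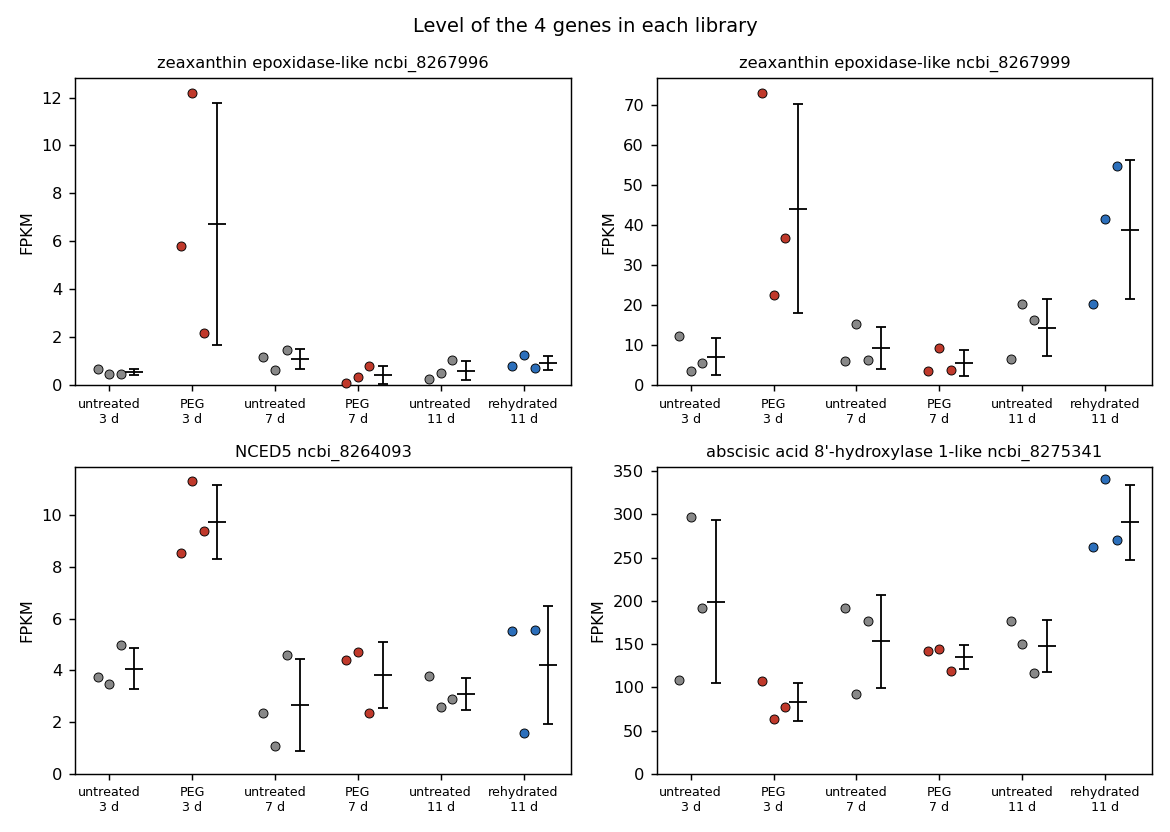
FPKM (vertical axes, linear, each with its own scale) of the 4 genes in each of the 18 libraries, by group; points are libraries and the bar beside them is the mean ± SD of 3. PEG at 3 days holds the highest points of both zeaxanthin epoxidase-like genes and of NCED5, and the hydroxylase has its lowest mean there (82.6 FPKM) and its highest in rehydrated roots (291 FPKM).

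Of the 3 neighbouring genes, the middle one, ncbi_8267997, made up most of the signal in most libraries. It had 15.60, 140.29 and 81.0 FPKM in untreated roots at 3 days and 50.46, 200.9 and 130.79 FPKM in PEG, and its difference of 1.12 ± 0.60 did not pass (edgeR adjusted p = 0.183). It was also not called at 7 days (0.81 ± 0.60, edgeR adjusted p = 0.416) or after rehydration (-0.76 ± 0.60, edgeR adjusted p = 0.732). In both 3-day groups the library numbered 1 had the lowest value of ncbi_8267997 and the highest of ncbi_8267999. Of the summed FPKM of the 3 genes, ncbi_8267999 accordingly took 43.0% in untreated library 1 but 2.39% and 6.33% in the other two, and 56.5% in PEG library 1 but 9.54% and 21.7% in the other two. Its share was 41.8%, 53.6% and 53.4% in the 3 rehydrated libraries, against 10.3%, 32.5% and 17.2% in untreated libraries of day 11, with no overlap. In PEG roots at 7 days its share was 3.13%, 11.1% and 2.89%, beside 6.10%, 24.2% and 7.70% untreated. These shares depend on how reads were divided among the copies.

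**Figure D2:**
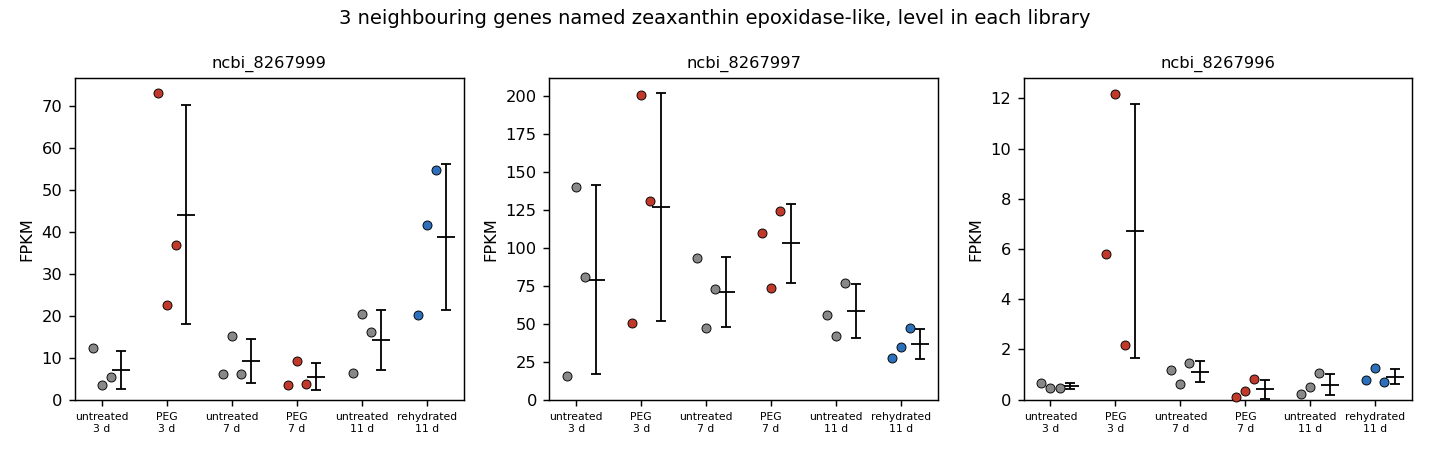
FPKM (vertical axes, linear, each with its own scale) of the 3 neighbouring genes named zeaxanthin epoxidase-like in each library, by group; points are libraries and the bar is the mean ± SD of 3. The middle gene ncbi_8267997 is lowest in rehydrated roots (36.4 FPKM), where ncbi_8267999 has a mean of 38.8 FPKM.

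The 2 genes that carry the KEGG number of zeaxanthin epoxidase did not share the 3-day pattern. The level of ncbi_8262901, whose symbol in the table is ABA2, a name used for zeaxanthin epoxidase in Nicotiana plumbaginifolia, was 6.36, 6.35 and 4.99 FPKM untreated and 2.38, 2.50 and 4.24 FPKM in PEG. Its difference was -0.51 ± 0.41 and not called (edgeR adjusted p = 0.373). For ncbi_8289205 the untreated libraries had 2.29, 3.04 and 1.66 FPKM and the PEG libraries 0.46, 1.02 and 0.54 FPKM, a difference of -1.34 ± 0.58 that was not called either (edgeR adjusted p = 0.105). Both had all PEG libraries below all untreated ones, as had 33.3% of all tested genes on this scale. The second was called lower when libraries were scaled by their totals and with limma on log2 FPKM. At 7 and 11 days their libraries overlapped and neither was called.

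NCED5 was highest in PEG roots at 3 days, by a smaller factor than the epoxidase-like pair and with less scatter. The untreated libraries had 3.73, 3.48 and 4.97 FPKM and the PEG libraries 8.54, 11.33 and 9.38 FPKM. The lowest of the 3 PEG libraries stood above every library of every other group, of which the highest had 5.56 FPKM. The difference was 1.70 ± 0.46, or 3.26-fold, on 233 and 624 counts, and was 1.26 with scaling by library totals. At 7 days the values were 2.34, 1.06 and 4.59 FPKM untreated and 4.38, 4.71 and 2.36 FPKM in PEG, with overlap (0.80 ± 0.46, edgeR adjusted p = 0.297). Rehydrated roots had 5.5, 1.56 and 5.56 FPKM against 3.79, 2.59 and 2.90 FPKM in untreated roots, where the second rehydrated library was the lowest of the 6 (0.37 ± 0.46, edgeR adjusted p = 0.837). The means of the other 5 groups, from 2.66 ± 1.79 to 4.21 ± 2.29 FPKM, did not differ beyond their spread.

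NCED5 was not the only NCED detected. The gene annotated as NCED3 (ncbi_8287688), after a family member that in Arabidopsis thaliana is the main drought-induced NCED, had 3.30, 1.47 and 1.56 FPKM untreated and 1.68, 4.26 and 1.85 FPKM in PEG at 3 days, and was not called (0.76 ± 0.92, edgeR adjusted p = 0.571). At 7 days it had 0.24, 0.00 and 0.96 FPKM untreated and 7.55, 2.32 and 0.98 FPKM in PEG. These did not overlap, though the untreated and PEG libraries numbered 3 nearly met, and the difference of 3.47 ± 1.04 fell short of the threshold (edgeR adjusted p = 0.0701). It was called with DESeq2 and without untreated library 3. NCED6 (ncbi_8265632) was not called at any time.

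The 8'-hydroxylase 1-like gene was the most abundant of the 4 by far. Its level per length exceeded that of 93.2% of all genes in its lowest group, PEG roots at 3 days, and that of 98.3% in its highest, rehydrated roots. At 3 days the untreated libraries had 108.50, 296.68 and 192.05 FPKM and the PEG libraries 106.88, 63.55 and 77.31 FPKM. The groups did not overlap, but the highest PEG library was within 2 FPKM of the lowest untreated one. The difference was -0.84 ± 0.33, from -1.27 when scaled by library totals to -0.42 without untreated library 2. At 7 days the ranges were 91.75 to 191.30 FPKM untreated and 119.27 to 143.83 FPKM in PEG, the second inside the first (0.10 ± 0.33), and the sign of this small difference changed with the scaling. Rehydrated roots had 262.45, 340.74 and 269.93 FPKM against 176.86, 149.66 and 116.42 FPKM in untreated roots of day 11. All 3 were above all untreated libraries of that day, and the difference was 0.93 ± 0.33, or 1.91-fold, with values of 0.75 to 1.02 when any 1 of these libraries was left out. The order of group means was rehydrated (291 ± 43.2 FPKM), untreated at 3 days (199 ± 94.3), 7 days (153 ± 53.7) and 11 days (148 ± 30.3), PEG at 7 days (135 ± 13.7) and PEG at 3 days (82.6 ± 22.1). Neighbours overlapped in this order except the last pair, whose libraries were apart.

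For the 4 genes together, 3 of 4 had all PEG libraries above all untreated ones at 3 days and 1 of 4 had them all below. Of all tested genes, 8.1% were apart in the first way and 33.3% in the second, and since the choice of genes used this comparison nothing is read from their count. At 7 days 0 of the 4 were apart, beside 8.44% of all tested genes higher and 25% lower. At 11 days 1 of 4, the hydroxylase, was apart, beside 7.96% of all tested genes higher and 8.72% lower.

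Within a library, the ratio of the 8'-hydroxylase to NCED5 does not depend on how libraries are scaled against each other. It was 29.1, 85.3 and 38.6 in untreated roots at 3 days and 12.5, 5.61 and 8.24 in PEG roots, so every PEG library was below every untreated one. Because both genes were chosen with these values known, this is a description. At 7 days the ratio was 81.8, 86.6 and 38.4 untreated and 32.4, 30.5 and 50.5 in PEG, with overlap. Rehydrated roots had 47.7, 218 and 48.5, and untreated roots of day 11 had 46.7, 57.8 and 40.1. The 218 comes from the rehydrated library with the lowest NCED5 and the highest hydroxylase. On the log2 scale the group means were 5.51 ± 0.803 and 3.06 ± 0.58 at 3 days (untreated, then PEG), 6.02 ± 0.657 and 5.20 ± 0.398 at 7 days, and 5.57 ± 0.262 and 6.32 ± 1.26 at 11 days (untreated, then rehydrated; SD, n = 3).

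**Figure D3:**
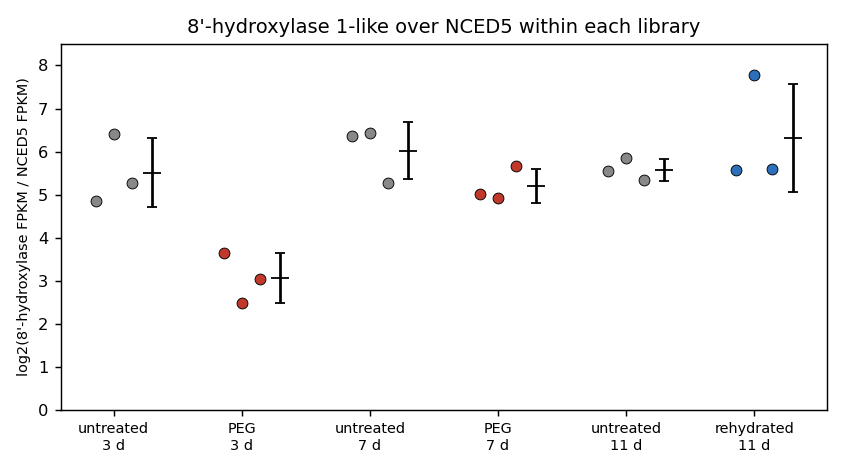
Log2 of the ratio of abscisic acid 8'-hydroxylase 1-like to NCED5 in FPKM (vertical axis) within each of the 18 libraries, by group; points are libraries and the bar is the mean ± SD of 3. The 3 PEG libraries of day 3 are the lowest of all, at 2.49 to 3.65, and the other libraries lie between 4.86 and 7.77.

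The remaining 8'-hydroxylases were much lower than this gene. Of the summed FPKM of 7 genes with that name it made up 97% in untreated and 80.2% in PEG-treated roots at 3 days, with 92.8% to 97.6% in the other 4 groups. Most of the rest was 8'-hydroxylase 4-like (ncbi_8278867), which went the opposite way at 3 days. It had 2.18, 12.23 and 3.71 FPKM untreated and 13.28, 23.35 and 22.54 FPKM in PEG. The difference of 2.14 ± 0.75 lay at the threshold and was not called (edgeR adjusted p = 0.05 after rounding). It was called with DESeq2, with DESeq2's size factors, without untreated library 2 and without PEG library 1. A further copy, 8'-hydroxylase 4 (ncbi_8262889), was too low to be tested. It had 8, 15 and 9 counts in the PEG libraries of day 3 and 0, 2 and 0 in the untreated ones, and no counts in PEG roots at 7 days or in rehydrated roots.

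Around the 4 genes, the product names gave 29 more genes of synthesis, breakdown and conjugation, 17 of them above the filter on low counts. At 3 days 1 of the 17 was higher and 2 were lower by edgeR's test, while 23.1% of all tested genes were called, 11.7% higher and 11.4% lower. The share of the 17 is near that background. The median log2 difference of the 17 was -0.77, beside -0.08 for all tested genes. With libraries scaled by their totals, the median of all genes was -0.52, and 1 of the 17 was higher and 8 lower, beside 5.67% of all tested genes higher and 25.8% lower.

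The gene that rose was abscisate beta-glucosyltransferase (ncbi_8288174), whose enzyme attaches glucose to the hormone. It had 22.33, 11.90 and 14.22 FPKM untreated and 37.47, 31.49 and 49.75 FPKM in PEG at 3 days, with no overlap. The change of 1.74 ± 0.36 passed (edgeR adjusted p = 0.00369) and was called in all 15 alternative settings that gave a value. At 7 days (-0.17 ± 0.35, edgeR adjusted p = 0.797) and after rehydration (0.62 ± 0.35, edgeR adjusted p = 0.595) it was not called.

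The genes that fell were both molybdenum cofactor sulfurases, of the enzyme that activates aldehyde oxidase. The first (ncbi_8258317) had 3.53, 6.45 and 3.33 FPKM untreated and 0.50, 0.75 and 0.75 FPKM in PEG at 3 days. All PEG libraries were far below the untreated ones, the change was -2.28 ± 0.38 (edgeR adjusted p = 0.00111), and it was called in 15 of 15 alternative settings. The second (ncbi_8265394) was low throughout, with 2.41, 0.35 and 0.77 FPKM untreated and 0.22, 0.15 and 0.12 FPKM in PEG. Its change was -2.38 ± 0.65 (edgeR adjusted p = 0.0172). It stayed lower in all 12 alternative settings that gave a value, but the call was lost without untreated library 1 (-1.37), PEG library 2 (-2.35) or PEG library 3 (-2.17). The third sulfurase (ncbi_8272616, -1.09 ± 0.55, edgeR adjusted p = 0.161) was not called. Aldehyde oxidases, the last enzymes of the synthesis, were not called either, at -1.27 ± 0.53 for ncbi_8286569 (edgeR adjusted p = 0.091) and -0.88 ± 0.33 for ncbi_8286576 (edgeR adjusted p = 0.0593). Both were called lower with library totals and with limma at either offset, and the second also with DESeq2 (3 and 4 of 15 alternative settings). The neoxanthin synthase ncbi_8272334 was not called (-0.85 ± 0.37, edgeR adjusted p = 0.105). It was called lower with library totals, with limma at either offset and without untreated library 2. These genes had all PEG libraries below all untreated ones in FPKM, as had 33.3% of all tested genes. Xanthoxin dehydrogenase (ncbi_8270915) had 0.94 ± 1.01 and 0.937 ± 0.461 FPKM (0.41 ± 0.87, edgeR adjusted p = 0.759).

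**Figure D4:**
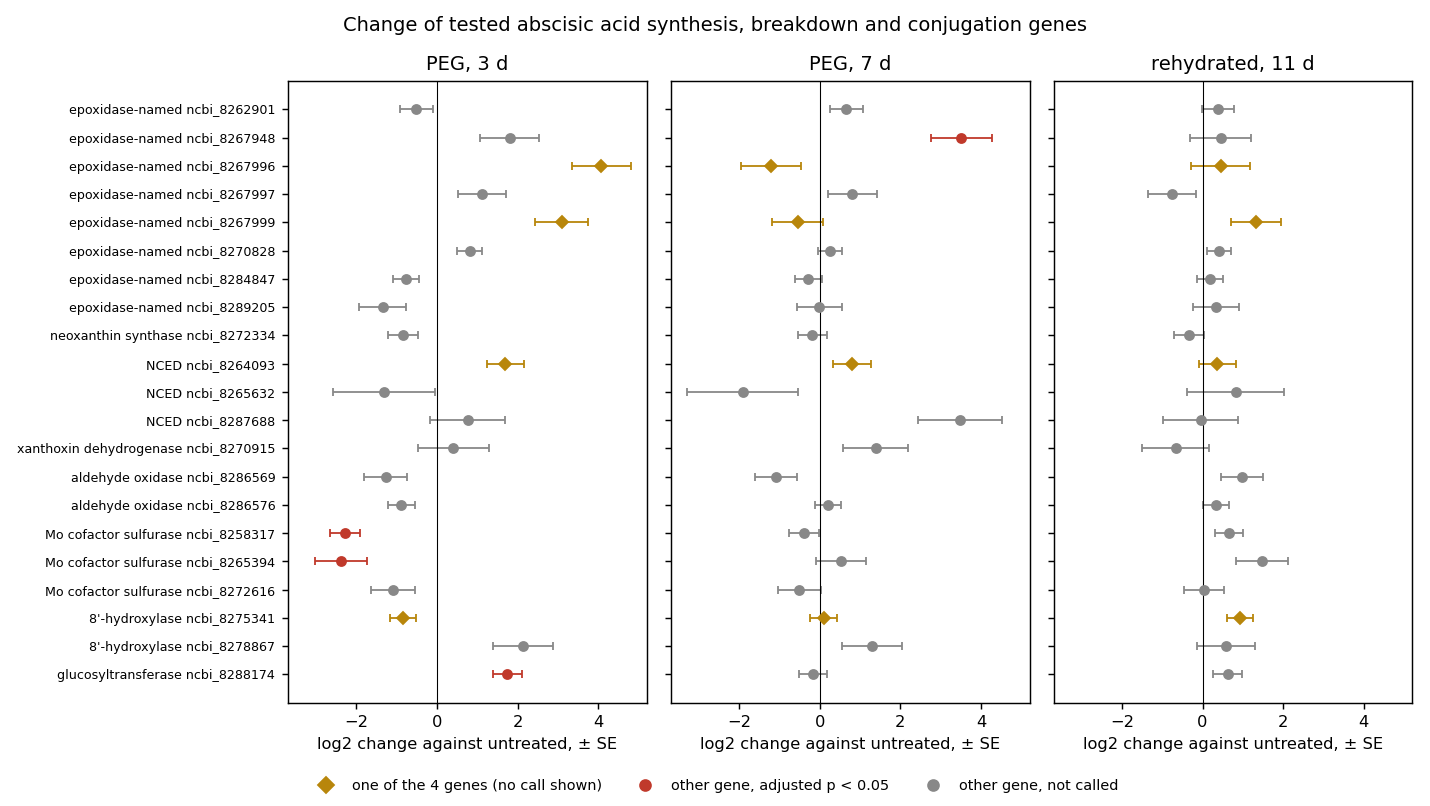
Log2 difference from untreated roots of the same day (horizontal axes, bars are ± SE from edgeR's fit) for the 21 tested genes of abscisic acid synthesis, breakdown and conjugation, at 3 days in PEG, 7 days in PEG and after rehydration. Red marks other genes with an adjusted p below 0.05, which are 3 at 3 days, 1 at 7 days and 0 at 11 days; diamonds are the 4 genes described, for which no call is drawn.

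At 7 days none of the 3 members that could be tested was called, while 4.05% of all tested genes were. Among the 3, ncbi_8267996 had few counts there (38 untreated and 13 in PEG). An unadjusted p below 0.05 was given to 0 of the 3 by edgeR, DESeq2 and limma on log2(FPKM + 1), and to 1 by limma on log2(FPKM + 0.1), and none of these called any. Among all 16085 tested genes, edgeR gave an unadjusted p below 0.05 to 3821. Of the 17 other genes 1 was higher and 0 lower. This was ncbi_8267948, another gene named zeaxanthin epoxidase-like with the symbol HPXO. It had 0.14, 0.36 and 0.39 FPKM untreated and 3.33, 0.85 and 4.00 FPKM in PEG, a change of 3.51 ± 0.75 (edgeR adjusted p = 0.0217). The call was lost without any 1 of 4 libraries (untreated 1 and 2, PEG 1 and 3), with changes of 3.14 to 3.68. The median of the 17 was 0.21, beside -0.06 for all tested genes.

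At 11 days edgeR called 0 of the 3 testable members and 0 of the 17 other genes, beside 0.0124% of all tested genes (0.00622% higher and 0.00622% lower). One of the 3 (ncbi_8267999) and 1 of the 17 (the sulfurase ncbi_8265394, 1.48 ± 0.64) had an unadjusted p below 0.05, and DESeq2 and limma called none of either set. Among all 16085 tested genes, edgeR gave an unadjusted p below 0.05 to 1564. Of the 3 members, ncbi_8267996 again had few counts (18 untreated and 27 rehydrated). The median of the 17 was 0.39, beside 0.00 for all tested genes.

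The difference between the effects at 7 and 3 days was -5.28 ± 1.02 for ncbi_8267996, -3.64 ± 0.90 for ncbi_8267999, -0.91 ± 0.64 for NCED5 and 0.93 ± 0.47 for the hydroxylase. It shares the 3-day libraries with the choice of genes and is given without a test. For this difference, 1762 of all 16085 tested genes had an unadjusted p below 0.05 by edgeR. Among all tested genes this difference was called for 0.236% (0.137% higher and 0.0995% lower), and for 0 of the 17 other pathway genes by edgeR (4 at an unadjusted p below 0.05, and 1 called by DESeq2, the glucosyltransferase ncbi_8288174, at -1.91). Between rehydrated roots at 11 days and PEG roots at 7 days, the effects differed by 1.66 ± 1.04 for ncbi_8267996 (edgeR adjusted p = 0.377), 1.87 ± 0.88 for ncbi_8267999 (edgeR adjusted p = 0.245) and -0.43 ± 0.64 for NCED5 (edgeR adjusted p = 0.729). None was called, beside 0.671% of all tested genes (0.087% higher and 0.584% lower). An unadjusted p below 0.05 was given to 0 of the 3 by edgeR, to 1 by DESeq2 and to 1 and 2 by limma with the offsets 1 and 0.1, and neither tool called any. Among all 16085 tested genes, edgeR gave an unadjusted p below 0.05 to 3305. For the hydroxylase, without a test, the difference was 0.84 ± 0.47.

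Untreated roots of days 11 and 7 give the drift of these genes without PEG. None of the 3 testable genes was called, beside 0.0187% of all tested genes, with differences of -0.83 ± 0.71 for ncbi_8267996 (edgeR adjusted p = 0.919), 0.60 ± 0.62 for ncbi_8267999 (edgeR adjusted p = 0.948) and 0.16 ± 0.46 for NCED5 (edgeR adjusted p = 0.988). edgeR, DESeq2 and limma gave 0 of the 3 an unadjusted p below 0.05. Of all 16085 tested genes, 1050 had such a p by edgeR. The libraries of all 4 genes overlapped between these days, beside 4.42% of all tested genes apart and higher and 6.15% apart and lower. Age and the day of sampling cannot be told apart in this comparison.

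The enzymes that supply zeaxanthin moved in both directions at 3 days, with 1 of 16 tested genes higher and 3 lower, near the background of 23.1%. Lycopene beta cyclase (ncbi_8286646), at the branch toward beta-carotene and zeaxanthin, rose from 5.92 ± 1.25 to 15.1 ± 3.78 FPKM (1.79 ± 0.42, edgeR adjusted p = 0.00798). It was also higher at 7 days, at 4.86 ± 2.60 and 13.5 ± 2.74 FPKM (1.76 ± 0.42, edgeR adjusted p = 0.0325), a call lost in 8 of 15 alternative settings, among them leaving out untreated library 1 or 2 or PEG library 1 or 3 (1.41 to 1.97). Upstream of it, zeta-carotene desaturase (ncbi_8289444) fell from 29.0 ± 4.21 to 8.91 ± 2.03 FPKM at 3 days (-1.27 ± 0.20, edgeR adjusted p = 0.000702). Cytochrome P450 97B2 (ncbi_8270524), of the family that holds carotenoid hydroxylases, fell from 7.86 ± 0.254 to 2.18 ± 0.686 FPKM (-1.41 ± 0.29, edgeR adjusted p = 0.00387). Of 3 tested genes that cleave other carotenoids 2 were lower, beside 11.4% of all tested genes. The 2 included the carotenoid cleavage dioxygenase 1 gene ncbi_8269090 (17.6 ± 1.72 to 6.23 ± 2.09 FPKM, edgeR adjusted p = 0.0207). Its change of -1.06 lost its call with only the libraries compared and without untreated library 1 (-1.0) or PEG library 2 (-0.86). At 7 days these lists had 1 higher and 0 lower of 16, and 0 higher and 1 lower of 3. Of all tested genes, 2.59% were higher and 1.46% lower at 7 days.

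Of the carriers of the hormone 4 genes were tested. At 3 days 0 of 4 were higher and 1 was lower, beside 11.7% and 11.4% of all tested genes. This was NRT1/PTR family 4.6-like (ncbi_8260881), of an importer in Arabidopsis thaliana, from 6.16 ± 2.30 to 0.687 ± 0.395 FPKM (-2.69 ± 0.42, edgeR adjusted p = 0.000712). At 7 days 2 of 4 were lower, beside 1.46% of all tested genes. One was the ABC transporter G family member 25 (ncbi_8259382), an exporter in Arabidopsis thaliana, from 9.37 ± 1.17 to 3.25 ± 0.55 FPKM (-1.27 ± 0.26, edgeR adjusted p = 0.0188). Its call was lost with only the libraries compared and without untreated library 1 or 2 or PEG library 1 or 3 (-1.34 to -1.14). The other was ncbi_8260881 again (-1.73), whose call was lost in the same settings (-1.74 to -1.52).

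Downstream, receptors, clade A phosphatases, SnRK2 kinases and bZIP factors had 5 higher and 1 lower of 28 at 3 days, a share near the background. The split became 3 higher and 5 lower with library totals (5.67% and 25.8% of all tested genes), where the list's median went from 0.37 to -0.07. The phosphatase 2C 56-like gene (ncbi_8268292), of the clade that holds the pathway back, had 14.1 ± 7.24 FPKM untreated and 43.0 ± 7.25 FPKM in PEG. ABSCISIC ACID-INSENSITIVE 5-like protein 7 (ncbi_8286238), of the factors that bind hormone-responsive promoters, had 12.1 ± 4.76 and 30.5 ± 6.53 FPKM. Both were called higher in 15 of 15 alternative settings. The gene called lower was the SnRK2 kinase SRK2A (ncbi_8267034), from 36.4 ± 7.48 to 15.8 ± 1.98 FPKM (-0.77 ± 0.22, edgeR adjusted p = 0.022). It was called in 11 of 15 alternative settings. LEA proteins and dehydrins, which protect drying cells, had 2 higher and 0 lower of 12, beside 11.7% and 11.4% of all tested genes. With library totals 0 were called in either direction. The LEA group 2 gene ncbi_8261701 rose from 252 ± 6.22 to 341 ± 56.5 FPKM (0.88 ± 0.23, edgeR adjusted p = 0.013) and was called in 10 of 15 alternative settings. At 7 days edgeR called 0 of the 28 signalling genes and 0 of the 12 LEA genes (6 and 3 at an unadjusted p below 0.05), while DESeq2 called 3 and 2 higher, beside 6.43% of all tested genes, and limma 0 of either. Of all 16085 tested genes, 3821 had an unadjusted p below 0.05 by edgeR at 7 days. At 11 days edgeR, DESeq2 and limma called 0 genes in each of the lists of supply, cleavage, transport, signalling and LEA genes. There edgeR gave an unadjusted p below 0.05 to 1, 1, 0, 8 and 0 of 16, 3, 4, 28 and 12 tested genes. The count over all 16085 tested genes was 1564 at 11 days.

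The marker lists were counted in the same way. Photosynthesis genes had 10 higher and 0 lower of 41 tested at 3 days, beside 11.7% of all tested genes higher, or 4 and 0 with library totals. At 7 days 29 were higher and 0 lower, beside 2.59% of all tested genes higher. Of 7 tested root markers 0 were higher and 2 lower at 3 days, beside 11.4% of all tested genes lower. They were SHORT-ROOT (ncbi_8283369) from 37.4 ± 8.42 to 10.8 ± 1.76 FPKM and SCARECROW (ncbi_8283041) from 8.07 ± 2.73 to 2.95 ± 0.615 FPKM. By edgeR's scaling the first change was -1.35 ± 0.25. The second change was -1.01, and its call was lost in 6 of 15 alternative settings, with the gene length trend removed (-0.62), with only the libraries compared, and without untreated library 1 or 3 or PEG library 2 or 3 (-1.0 to -0.73). At 7 days edgeR, DESeq2 and limma called 0 of the 7, with 1 at an unadjusted p below 0.05 by edgeR. At 11 days neither list had a call by any of the 3 tools. edgeR then gave an unadjusted p below 0.05 to 5 photosynthesis genes and 0 root markers. Of all 16085 tested genes, 3821 had such a p at 7 days and 1564 at 11 days.

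The genes whose log2 CPM (counts scaled by library size) ran most like those of the 4 across the 18 libraries were looked up among 11508 candidates. These correlations take in the differences between groups and have no test. Closest to ncbi_8267996 were an alternative NAD(P)H dehydrogenase A2 gene of mitochondria (ncbi_8281747, Pearson r = 0.88), hevamine-A, a chitinase (ncbi_8277059, r = 0.88), and a palmitoyl-ACP thioesterase, which releases fatty acids in plastids (ncbi_8278580, r = 0.86). All 3 had their highest group mean in PEG at 3 days and their lowest in PEG at 7 days, as had ncbi_8267996. Closest to ncbi_8267999 were a thaumatin-like gene (ncbi_8270002, r = 0.86), aldo-keto reductase 2 (ncbi_8261536, r = 0.82) and a basic 7S globulin-like gene (ncbi_8271570, r = 0.82). The thaumatin-like gene was highest in rehydrated roots (7.85 FPKM) and lowest in PEG at 7 days (0.58 FPKM). Closest to NCED5 were a UPF0183 protein (ncbi_8258346, r = 0.90), an unnamed protein matched in Brassica napus (ncbi_107262050, r = 0.89) and the E3 ubiquitin ligase HIP1 (ncbi_8272245, r = 0.89), all highest in PEG at 3 days. Closest to the hydroxylase were the kinase EDR1 (ncbi_8275700, r = 0.85), the corepressor LEUNIG (ncbi_8278611, r = 0.85) and WRKY72 (ncbi_8276036, r = 0.81). All 3 were lowest in PEG at 3 days and highest in rehydrated roots, and the WRKY72 gene went from 6.36 to 44.9 FPKM between these groups.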

How the data were processed

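RNA of castor root systems was extracted with Trizol and libraries were made with an mRNA kit, per the labels' protocols; no aligner, counter or build is named in the sources used here. The deposited table holds expected counts (estimated reads per gene, at least 98.3% whole within 1e-06) and FPKM, as named per the file headers. Counts were rounded and used for tests; the authors' FPKM gave levels. For untreated roots of day 11 labels disagree on the FPKM columns, so those 3 columns of per-sample values were left out and FPKM was computed from counts, totals and the gene lengths that the other columns imply (0 entered for 57 genes with no length, none in a list). Genes passing filterByExpr (minimum count 10, minimum total 15) were scaled by TMM. edgeR's quasi-likelihood test (R 4.3.3, edgeR 4.0.16, robust) fitted a mean for each group over all 18 libraries. Benjamini-Hochberg adjustment ran over all 16085 genes, with calls below 0.05. SE was taken as |log2 difference| divided by the root of F. TMM factors ran from 0.765 to 0.806 in PEG roots at 3 days, below all others.

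Members and lists were chosen with earlier results of these data known. Lists were searched by product name, and 3 searches were corrected on names after the table was seen. Text names the 4 members, their pathway lists, and from other lists up to 2 called genes per direction with mean FPKM of at least 5 and no overlap; the 3 most alike genes came from Pearson correlation of log2 CPM (prior count 2). Alternatives were DESeq2 1.42.0, its size factors, library totals, no filter, a replicate block, removal of the gene length trend (lowess span 0.3), only the libraries compared, limma 3.58.1 on log2(FPKM + 1) or log2(FPKM + 0.1) for genes with at least 1 FPKM in 3 libraries, the threshold 0.01, and leaving out each library in turn. A list by the authors' KEGG numbers was added after seeing the data. The fit was tested on counts simulated for the 3-day PEG comparison, with 100 genes changed 4-fold and 100 changed 2-fold. It called 73 of the first and 9 of the second, with 3 false calls. Most changes of 2-fold were thus missed, and lack of a call does not show that a gene did not change. Replicates of a group differed beyond counting noise. Of the identifiers, 18929 of 20538 with an NCBI number matched RefSeq's table, used for neighbours only. Sequences were not used here.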

Additional observations from a re-analysis of the deposited data

Results flagged for a closer look

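At 3 days all PEG libraries of the zeaxanthin epoxidase-like gene ncbi_8267996 lay above the mean of the untreated libraries, and at 7 days all lay below it in FPKM. The log2 effect at 7 days minus that at 3 days was -5.28, and this difference was not tested because the gene was chosen at 3 days.

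The 8'-hydroxylase 1-like gene ncbi_8275341 lay, in FPKM, below the untreated mean in all PEG libraries at 3 days and at 7 days, and above it in all rehydrated libraries. At 7 days edgeR's log2 difference was 0.10 ± 0.33, and its sign changed with the scaling. The log2 effect of rehydration minus that of PEG was 1.77 against 3 days and 0.84 against 7 days, and neither difference was tested. With 3 libraries per group, no library was tested as an outlier.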

How the results depend on the processing

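An adjusted p below 0.01 left 1433 called genes at 3 days, 70 at 7 days and 0 at 11 days, 5 and 3 for the effect differences (7 minus 3 days, 11 minus 7 days). Fitting only the libraries compared gave 1285, 170, 0, 19, 436 and, between untreated roots of days 11 and 7, 0. DESeq2 gave 1688 at 7 days, 58 at 11 days, 245, 931 and 61; limma (offset 1, then 0.1) gave 4 and 4 at 11 days, 50 and 23 for 11 minus 7 days, and 7 and 10 between untreated days. Library totals gave 1 at 11 days and 20 for 11 minus 7 days, no filter 0 at 11 days, and removal of the length trend 6 for 11 minus 7 days and 7 between untreated days. Of the 17 other pathway genes, 3 days had 9 called with library totals, 6 with DESeq2, and 7 and 7 with limma (31.5%, 28.3%, 29.8% and 31.4% of all genes tested there). With limma ncbi_8265632 and ncbi_8265394 of the 17 had no value. At 7 days 0 were called at an adjusted p below 0.01, 0 with only the libraries compared and 2 with DESeq2 (10.5% of all). For 7 minus 3 days DESeq2 called 1 (1.52% of all). The list by KEGG numbers, a different list with 9 tested genes, had 1 called at 3 days and 0 at 7 days. The log2 difference of ncbi_8267996 at 3 days was 2.10 and 3.13 with limma (offset 1, then 0.1). That of NCED5 was 1.26 with library totals and 1.09 and 1.25 with limma. The cause of these and the other shifts was not tested. ncbi_8267996 had no value at 7 and 11 days with only the libraries compared, where it was filtered out.

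Leaving out 1 library gave 1900 to 3959 called genes at 3 days (1900 without untreated library 1, and 2107 without PEG library 2), 47 to 824 at 7 days (47 without untreated library 2), 0 to 3 at 11 days, 14 to 46 and 3 to 433 for the effect differences, and 0 to 2 between untreated days. The other pathway genes called were 2 to 5 at 3 days and 0 to 2 at 7 days. Without untreated library 2 of day 7, ncbi_8267999 at 7 days turned to 0.13 (-1.07 to 0.13 over the libraries left out) and NCED5 between untreated days to -0.18 (-0.18 to 0.82). At 3 days the ranges were 3.30 to 4.51 for ncbi_8267996, 2.51 to 3.71 for ncbi_8267999, 1.56 to 1.90 for NCED5 and -1.14 to -0.42 for the hydroxylase. Same-numbered libraries did not deviate together in every pair (r from 0.0799 to 0.625 at 3 days, -0.227 to 0.503 at 7 days, -0.156 to 0.164 at 11 days), so numbers were not taken as pairs. A replicate block gave 3400 called genes at 3 days, 541 at 7 days, 2 at 11 days and 21 for 7 minus 3 days. ncbi_8267996 is limited by depth, with 13 counts over the 3 PEG libraries of day 7.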
